A study of Homo sapiens with 16 samples.

Results

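H3K4me3 peaks that were called in GFP cells and had no counterpart in MAFG cells numbered 2721 of the 13579 H3K4me3 peaks of GFP cells on chromosomes 1 to 22 and X. The cells were WM164, a human melanoma cell line, overexpressing either GFP or MAFG. A peak was counted as called in GFP cells only when it shared no base with any of the 11580 H3K4me3 peaks of MAFG cells, and the other 10858 peaks are called both-line peaks here. The authors profiled about 250000 cells per sample by CUT&RUN with the CUTANA kit version 4.0, in which an antibody directs a nuclease to its target in nuclei and the released fragments are sequenced. Each line had 8 samples, namely 1 with anti-H3K4me3, 3 with anti-MITF, 3 with anti-MAFG and 1 IgG control, and the control samples were not analysed here. The labels name no clone, vector or promoter for either overexpression, and no source of the replicates, so that p-values measure the spread between libraries, which may be technical. With 1 H3K4me3 library per line, the difference in H3K4me3 that defined the GFP-only peaks has no replicate check, and a change of the mark and a difference between these libraries cannot be told apart.

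H3K4me3, trimethylation of lysine 4 on histone H3, is laid down by SET1 and MLL methyltransferases and marks the starts of active genes, most strongly where DNA is rich in unmethylated CpG. Narrow and weak peaks of the mark also occur at enhancers and at genes that are poised or rarely transcribed. MITF is the basic helix-loop-helix factor that governs the melanocyte lineage and its pigment genes, and it binds E-box and M-box sequences. MAFG is a small MAF protein without an activation domain of its own, which pairs with NRF2 or BACH proteins at antioxidant response elements.

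The promoters of 7 genes with a GFP-only summit within 1000 bp of the start show the range of sequence in the set. All are from RefSeq on GRCh38.p14, the 300 bases from 250 before to 50 after the start, read on the strand of the gene. In the first 4, capitals mark each CpG. LIMD2 (chr17:63700076-63700375, minus strand) is dense in CpG and had no MITF or MAFG peak, RNF43 (chr17:58417485-58417784, minus strand) is poor in CpG, PCDHA2 (chr5:140794602-140794901, plus strand) belongs to the protocadherin clusters and ZNF85 (chr19:20923001-20923300, plus strand) to a zinc finger cluster.
LIMD2: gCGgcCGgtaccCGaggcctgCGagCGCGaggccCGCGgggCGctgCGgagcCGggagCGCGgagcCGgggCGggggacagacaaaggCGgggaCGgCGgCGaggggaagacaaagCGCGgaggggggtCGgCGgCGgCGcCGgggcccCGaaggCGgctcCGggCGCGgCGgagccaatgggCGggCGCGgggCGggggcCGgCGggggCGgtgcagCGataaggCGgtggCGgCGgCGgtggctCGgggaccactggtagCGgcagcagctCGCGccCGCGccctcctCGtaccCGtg
RNF43: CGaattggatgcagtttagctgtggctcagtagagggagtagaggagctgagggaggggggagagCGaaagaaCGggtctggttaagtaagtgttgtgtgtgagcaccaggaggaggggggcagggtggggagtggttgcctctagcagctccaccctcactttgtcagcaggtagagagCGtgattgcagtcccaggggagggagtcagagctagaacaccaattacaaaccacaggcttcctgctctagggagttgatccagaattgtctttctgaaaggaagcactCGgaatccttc
PCDHA2: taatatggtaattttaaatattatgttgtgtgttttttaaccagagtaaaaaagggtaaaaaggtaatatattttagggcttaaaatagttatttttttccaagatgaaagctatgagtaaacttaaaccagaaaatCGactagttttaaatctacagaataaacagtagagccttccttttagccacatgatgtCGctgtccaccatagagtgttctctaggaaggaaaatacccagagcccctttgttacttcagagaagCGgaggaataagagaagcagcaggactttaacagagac
ZNF85: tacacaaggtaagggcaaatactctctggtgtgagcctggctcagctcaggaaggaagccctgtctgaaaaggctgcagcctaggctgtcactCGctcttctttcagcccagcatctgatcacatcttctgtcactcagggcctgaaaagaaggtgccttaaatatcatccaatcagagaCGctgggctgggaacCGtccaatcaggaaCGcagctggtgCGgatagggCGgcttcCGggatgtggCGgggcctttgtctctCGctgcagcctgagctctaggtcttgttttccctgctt
In the other 3, capitals mark CACGTG and CATGTG, the E-box and M-box cores, in either orientation. HS3ST3A1 (chr17:13601880-13602179, minus strand) lies at the widest GFP-only peak, GPR143 (chrX:9765798-9766097, minus strand) is a pigment gene, and PCDHA11 (chr5:140868707-140869006, plus strand) is another protocadherin.
HS3ST3A1: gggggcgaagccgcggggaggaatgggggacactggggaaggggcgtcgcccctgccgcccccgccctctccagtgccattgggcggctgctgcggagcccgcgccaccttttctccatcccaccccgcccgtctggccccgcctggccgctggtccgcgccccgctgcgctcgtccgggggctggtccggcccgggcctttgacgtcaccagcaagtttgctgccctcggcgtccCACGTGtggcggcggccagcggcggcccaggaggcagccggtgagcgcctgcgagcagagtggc
GPR143: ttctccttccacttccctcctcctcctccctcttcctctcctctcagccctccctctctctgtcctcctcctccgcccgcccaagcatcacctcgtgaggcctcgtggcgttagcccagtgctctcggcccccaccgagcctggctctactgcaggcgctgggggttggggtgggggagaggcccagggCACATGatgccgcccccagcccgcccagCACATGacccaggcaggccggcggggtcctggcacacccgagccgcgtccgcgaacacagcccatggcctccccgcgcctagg
PCDHA11: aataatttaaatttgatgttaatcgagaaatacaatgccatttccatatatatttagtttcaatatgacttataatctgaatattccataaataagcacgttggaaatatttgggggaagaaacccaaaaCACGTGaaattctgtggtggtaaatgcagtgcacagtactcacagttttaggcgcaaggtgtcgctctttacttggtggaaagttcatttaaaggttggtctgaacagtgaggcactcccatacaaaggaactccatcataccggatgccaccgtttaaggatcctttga

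The GFP-only peaks were narrow and weak. They held 20.0% of the H3K4me3 peaks of GFP cells but 6.77% of the bases in them, 2.19 Mb beside 30.2 Mb in both-line peaks. Their median width was 647 bp (quartiles 443 and 981 bp, widest 6477 bp), and that of both-line peaks was 2499.5 bp. Peaks under 1000 bp made up 76.1% of the GFP-only set and 5.26% of the both-line set. The authors' fold enrichment over control had a median of 6.36 (quartiles 5.09 and 8.74, range 2.89 to 46.4) among GFP-only peaks and of 35.4 among both-line peaks. When all GFP-cell peaks were put into 10 classes of equal size by fold, 89.8% of the lowest class, 71.3% of the second, 30.8% of the third and 6.06% of the fourth were GFP only. The 3 lowest classes thus held 2611 of the 2721 peaks, and 4 lay above the median fold of the list. A −log10 q of at least 5 was reached by 2012 of the GFP-only peaks (73.9%). The GFP-only peaks were chosen by the H3K4me3 calls of these 2 libraries, so these values are a description with no test.

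**Figure D1:**
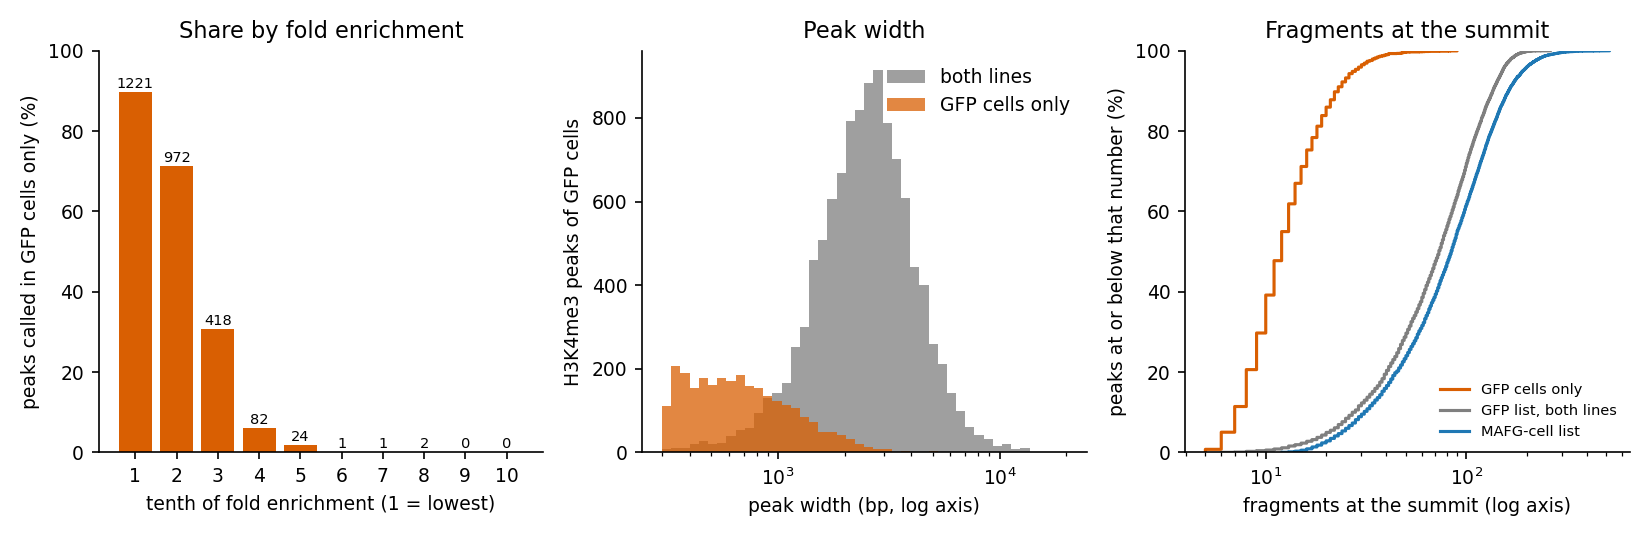
Left, share of H3K4me3 peaks of GFP cells that were called in GFP cells only, in 10 classes of fold enrichment, with the number of GFP-only peaks above each bar. Middle, histogram of peak width on a log axis. Right, cumulative share of peaks by fragments at the summit on a log axis. The GFP-only peaks fill the lowest classes of fold, centre on 647 bp and lie far to the left in fragments, while the list of MAFG cells starts at 12 fragments.

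Fragments at the summit, recovered as whole numbers from fold and p, put these peaks beside the reach of the MAFG-cell list. GFP-only peaks had a median of 12 fragments at the summit (quartiles 9 and 16, range 5 to 90), against 73 for both-line peaks. In the MAFG-cell list the lowest summit had 12 fragments, and the 5th percentile was 24. Of the GFP-only peaks, 1299 (47.7%) lay under 12 fragments and 2477 (91.0%) under 24. The calls in MAFG cells fitted fragments scaled by 0.35 against their control, and those in GFP cells fitted a scale of 1. A peak of a given number of fragments thus reached a lower fold and a lower −log10 p in MAFG cells. The mirror set was small, with 85 MAFG-only peaks among the 11580 of MAFG cells (0.734%). Its summits held 12 to 86 fragments (median 19). The part of library depth and scaling in the excess of GFP-only calls was not tested. When the same number of best peaks by p, 11580, was taken from each list, 938 were GFP only and 291 MAFG only.

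At the boundary of the rule, the nearest GFP-only peaks lay 1 bp from a MAFG-cell peak at SPDL1 (fold 3.72), 15 bp away in a peak inside RASIP1, near MAMSTR (fold 6.38), and 30 bp away at FSCN1 (fold 3.94). The both-line peaks with the smallest overlaps shared 19 bp inside SORCS1 (fold 5.66), 26 bp at KCNJ2 (fold 6.64) and 40 bp inside ATF7 (fold 6.31). The folds on either side of the rule overlapped. Most GFP-only peaks lay far from any H3K4me3 peak of MAFG cells. A distance of more than 5000 bp to the nearest H3K4me3 peak of MAFG cells was found for 1951 (71.7%), more than 1000 and up to 5000 bp for 520 (19.1%) and up to 1000 bp for 250 (9.19%). The median distance was 21510 bp. Of the peaks in the middle class of distance, 65.4% lay inside genes and 9.23% at protein-coding starts, whereas 38.4% of those more than 5000 bp away were at protein-coding starts.

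By gene position, GFP-only peaks were spread over gene starts, gene bodies and intergenic DNA, while both-line peaks sat mostly at starts. The summit lay within 1000 bp of a protein-coding start in 883 GFP-only peaks (32.5%, 95% exact binomial interval 30.7 to 34.2) and in 82.1% of both-line peaks. It lay at the start of another gene in 10.3% and 5.75%, inside a gene in 41.2% and 9.88%, and outside genes in 16.1% and 2.23%. Read the other way, 9.01% of all H3K4me3 peaks at protein-coding starts were GFP only, 30.9% at other starts, 51.1% inside genes and 64.4% outside genes. The difference was also present within classes of width. When all GFP-cell peaks were put into 5 classes of equal size by width, the narrowest class reached 1026 bp, and in it 28.5% of the 2097 GFP-only and 60.4% of the 619 both-line peaks were at protein-coding starts, and in the next class of width the shares were 45.1% and 80.1%. GFP-only peaks at protein-coding starts were wider (median 766 bp) and stronger (median fold 7.66) than those inside genes (590.5 bp and 5.74). The 85 MAFG-only peaks had a similar spread, with 24.7% at protein-coding starts and 44.7% inside genes. Every chromosome contributed, from 16.5% of the peaks of chromosome 16 to 26.4% of those of chromosome 21 (37 of 140).

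**Figure D2:**
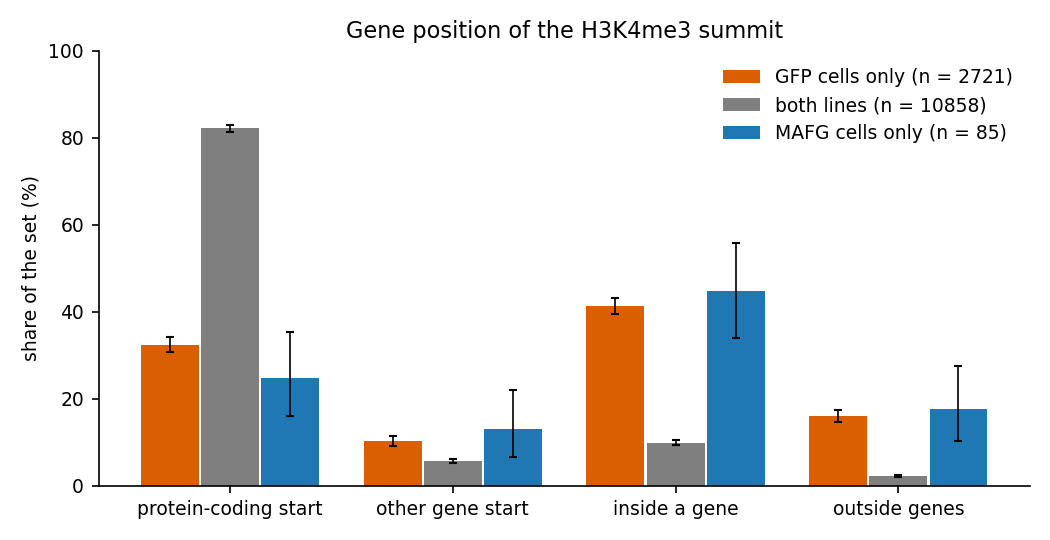
Share of H3K4me3 peaks in each class of gene position for peaks called in GFP cells only, in both lines and in MAFG cells only. Bars give percent of the set and whiskers the exact 95% binomial interval, which covers counting error only. Protein-coding starts held 32.5% of the GFP-only and 82.1% of the both-line peaks, and gene bodies 41.2% and 9.88%.

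The strongest GFP-only peak lay at the start of PARP8, a member of the ADP-ribosyltransferase family. It spanned chr5:50666412-50669654 with a fold of 46.4, 90 fragments at the summit and a rank of 3641 among the 13579 peaks. The nearest H3K4me3 peak of MAFG cells was 2129608 bp away, and none of the 12 MITF or MAFG libraries had a peak on it. The peak of HS3ST3B1, a heparan sulfate 3-O-sulfotransferase (chr17:14300888-14303901), followed with a fold of 46.4 and was overlapped in 3 of 3 anti-MITF and 1 of 3 anti-MAFG libraries of GFP cells. The start of its paralog HS3ST3A1 (chr17:13597158-13603634) carried the widest GFP-only peak, 6477 bp, at a fold of 28.7 and with a peak in all 6 factor libraries of GFP cells. PELO, a ribosome rescue factor whose gene lies inside ITGA1 (chr5:52787237-52790072, fold 41.8), also had a peak in all 6. These 4 were the GFP-only peaks above the median fold of the list.

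The rest of the 10 strongest had folds of 24.9 to 26.8. RNF43, the ubiquitin ligase that clears Wnt receptors from the cell surface (chr17:58412795-58417690), had a 4896 bp peak with 58 fragments and a factor peak in 3 anti-MITF and 2 anti-MAFG libraries of GFP cells. CALCOCO1, an autophagy receptor for the endoplasmic reticulum, and LIMD2, a LIM domain protein, had peaks of 41 and 45 fragments at their starts. CALCOCO1 was overlapped in 2 anti-MAFG libraries and LIMD2 in none. POLR2J, a subunit of RNA polymerase II with near-identical copies on the same chromosome, had a 677 bp peak of 38 fragments, and its placement is uncertain because reads can be shared between copies. Inside RORA, a retinoid-related orphan receptor, a peak at chr15:60591144-60593006 had a fold of 26.8 and a peak in 3 anti-MITF libraries. A peak inside KALRN, a guanine nucleotide exchange factor, at chr3:124032731-124034521 had a fold of 24.98 and was overlapped in 3 anti-MITF and 2 anti-MAFG libraries.

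Away from gene starts and ends and from any MAFG-cell H3K4me3 peak by more than 5000 bp lay 576 GFP-only peaks. After RORA, the strongest were an intergenic peak at chr9:40744947-40746299 (fold 23.6), one inside LOC100132154 at chr9:64868675-64869230 (fold 19.8), one inside PIK3R2, a regulatory subunit of PI3 kinase (fold 18.7), and one inside SEMA3A, a repellent axon guidance ligand (chr7:84368481-84372524, fold 18.4). The SEMA3A peak was overlapped in all 6 factor libraries of GFP cells and in 1 anti-MITF library of MAFG cells, while the other 3 had no factor peak. Both chromosome 9 peaks lie in duplicated sequence around the FOXD4L genes, where reads cannot be placed with certainty. Among the widest, TRAF1, an adaptor of tumour necrosis factor receptors (5113 bp, fold 19.3), and PROX1, a homeobox factor of lymphatic endothelium (4934 bp, fold 24.8), were each overlapped in 1 factor library, and a peak 14178 bp from the start of PCDH1 (4379 bp, fold 14.1) in 3 anti-MITF libraries.

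Over protein-coding genes, 743 of 19974 (3.72%) had a GFP-only peak as their sole H3K4me3 peak at a start, 10133 (50.7%) had a both-line peak and 13 (0.0651%) a MAFG-only peak. All 36 ribosomal protein and proteasome genes had both-line peaks, and with 5000 bp around the start 4 of them had a GFP-only peak beside the both-line one. Of 30 genes linked to MAF or NRF2 sites 27 had both-line peaks and none was GFP only. At a background of 3.72%, 0 of 36 and 0 of 30 are near the share over all genes. Of 50 developmental transcription factors outside the HOX clusters, 5 (10%) were GFP only and 15 had both-line peaks, and of 30 genes of the dedifferentiated melanoma state 3 (10%) were GFP only and 12 had both-line peaks. These counts are small, the background is 3.72%, and the lists were not tested.

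Among the developmental factors, GATA2, a regulator of blood stem cells, had the strongest peak (fold 17.9, 1187 bp) with a factor peak in 1 anti-MITF library of GFP cells. GATA3, a regulator of T cell and luminal epithelial fate, had a fold of 7.92 and a peak in 2 anti-MAFG libraries. FOXF1 (fold 4.24), PAX2 (fold 5.11) and SOX1 (fold 5.11), factors of mesoderm, kidney and neural development, had no factor peak. In the dedifferentiated list, the receptor tyrosine kinase AXL (fold 4.73), the neurotrophin receptor NGFR (fold 10.7) and the WNT5A receptor ROR2 (fold 9.51) had GFP-only peaks of 1040, 1603 and 1489 bp, none with a factor peak in any of the 12 libraries. These 8 genes had summits between 1 and 991 bp from the start.

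Of the 30 genes of the pigment lineage, 18 had both-line peaks and 2 were GFP only (6.67%, beside 3.72% of all protein-coding genes). GPR143, the melanosomal receptor mutated in ocular albinism, had a 1468 bp peak of fold 7.66 and no factor peak in any library, and the promoter printed above holds 2 CATGTG cores. TSPAN10, a tetraspanin, had a 642 bp peak of the same fold, with a peak in 2 anti-MITF libraries of GFP cells. The remaining lists gave HOXB8 (1 of 39 HOX genes, fold 9.46), the ephrin receptor EPHA2 (1 of 20 targets and feedback genes of MAPK signalling, fold 16.4), the interferon-induced IFIT2 (1 of 30, fold 4.10), and the calcium channel CACNA1C and the neurexin family member CNTNAP2 (2 of 40 neuronal genes, folds 8.93 and 4.31). These shares of 2.56%, 5%, 3.33% and 5% were near the 3.72% of all protein-coding genes. Any base of a peak within 1000 bp of the start, counted in place of the summit, gave 3 of 39 HOX genes (7.69%). The share of all protein-coding genes by that rule was 3.87%. With 5000 bp around the start 5 of 39 HOX genes were GFP only (12.8%, beside 4.27% of all protein-coding genes). The cells' identity was read from the same peaks. By the summit rule 4 of 8 melanocytic markers had a both-line peak and the rest no peak. By any base of a peak in the same window it was 7 of 8, TYRP1 being the exception. No marker of keratinocytes or endothelium had a peak at its start, and the 1 leukocyte marker with a peak was SPI1, at a GFP-only peak of fold 5.09.

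CpG content was read at the protein-coding starts with a GFP-only summit within 1000 bp and no both-line summit, called starts under GFP-only peaks here. An observed over expected CpG of at least 0.6 was found for 592 of 788 starts under GFP-only peaks (75.1%), for 90.7% under both-line peaks, for 34.7% without a peak in GFP cells and for 62.2% of all starts in the table. The median ratio was 0.788 under GFP-only and 0.864 under both-line peaks, while the median GC content was 66.7% in both. Within classes of fold the gap was narrower, with 75.3% and 75.7% at a fold of 6 to 10 and 77.2% and 85.2% at 10 to 15. At a fold of 15 or more it was 80.7% of 83 starts against 91.6%. That class is open and not matched, as folds ended at 46.4 among GFP-only and at 168 among both-line peaks. Of the 4 motifs searched on both strands, CACGTG was in 9.26% of the starts under GFP-only peaks, 10.5% under both-line peaks and 8.34% of all starts. CATGTG was in 9.26%, 5.56% and 8.93%, TGACNNNGC, the core of the antioxidant response element, in 13.7%, 15.2% and 13.8%, and TGANTCA, the AP-1 palindrome, in 6.09%, 3.47% and 6.15%. For each motif the share under GFP-only peaks was nearer to that of all starts than to that under both-line peaks. A match describes the letters of the window and is not a binding site.

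**Figure D3:**
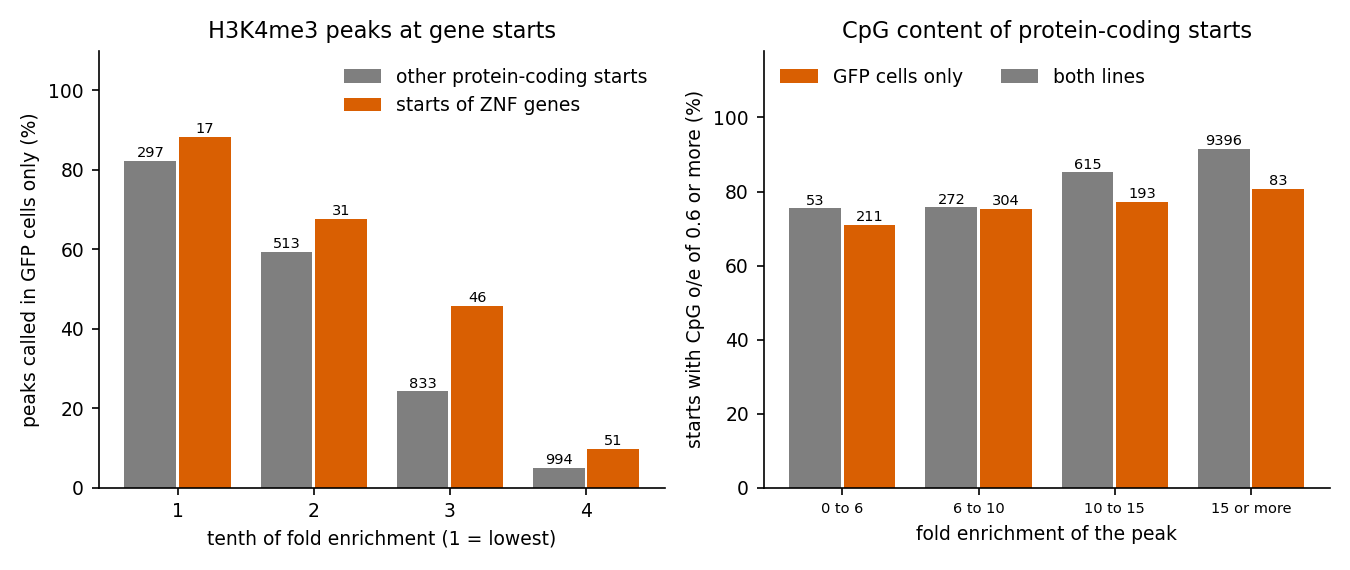
Left, share of H3K4me3 peaks at protein-coding starts that were called in GFP cells only, by class of fold enrichment (1 is the lowest of 10), for genes named ZNF and for other genes, with the number of peaks above each bar. Right, share of protein-coding starts with an observed over expected CpG of at least 0.6, by fold of the peak, with the number of starts above each bar. In the third class of fold 45.7% of 46 peaks at ZNF starts and 24.2% of 833 at other starts were GFP only.

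Some GFP-only peaks neighboured each other along the chromosomes. A run is a series of H3K4me3 peaks of GFP cells, all GFP only, that no both-line peak interrupts. Of the 2721 peaks, 1714 (63.0%) stood alone, 672 (24.7%) were in runs of 2 and the rest in longer runs. As 20.0% of all H3K4me3 peaks of GFP cells were GFP only, runs also arise in a random order. An excess of runs over such an order was not tested. The longest run had 11 peaks. It covered the alpha and beta clusters of the protocadherins, neuronal adhesion genes that cells express in random combinations, at chr5:140710368-141321535, and 774 kb there held no H3K4me3 peak of MAFG cells. The starts of PCDHA2 (fold 12.1), PCDHA11 (fold 7.35), PCDHB2 (fold 5.66), PCDHB16 (fold 9.86), PCDHB9 (fold 7.66) and PCDHB11 (fold 7.66) carried peaks of 362 to 799 bp. The run ended at TAF7, a subunit of TFIID, with a peak of 1649 bp and fold 20.4. The first peak, near LOC105378198, those of PCDHA2, PCDHA11 and TAF7, and an intergenic peak 10772 bp from PCDHB1 were overlapped in all 6 factor libraries of GFP cells. The peaks of PCDHB2, PCDHB9 and PCDHB11 were overlapped in none. In MAFG cells the intergenic peak was overlapped in 3 of 3 anti-MITF libraries and that of PCDHA11 in 1 anti-MAFG library. Over all 53 clustered protocadherin genes, a family picked after its values were seen, 6 were GFP only (11.3%, beside 3.72% of all protein-coding genes). A both-line peak was present for 1, PCDHGA12 and PCDHGC5 had MAFG-only peaks, and 44 had no peak at a start.

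**Figure D4:**
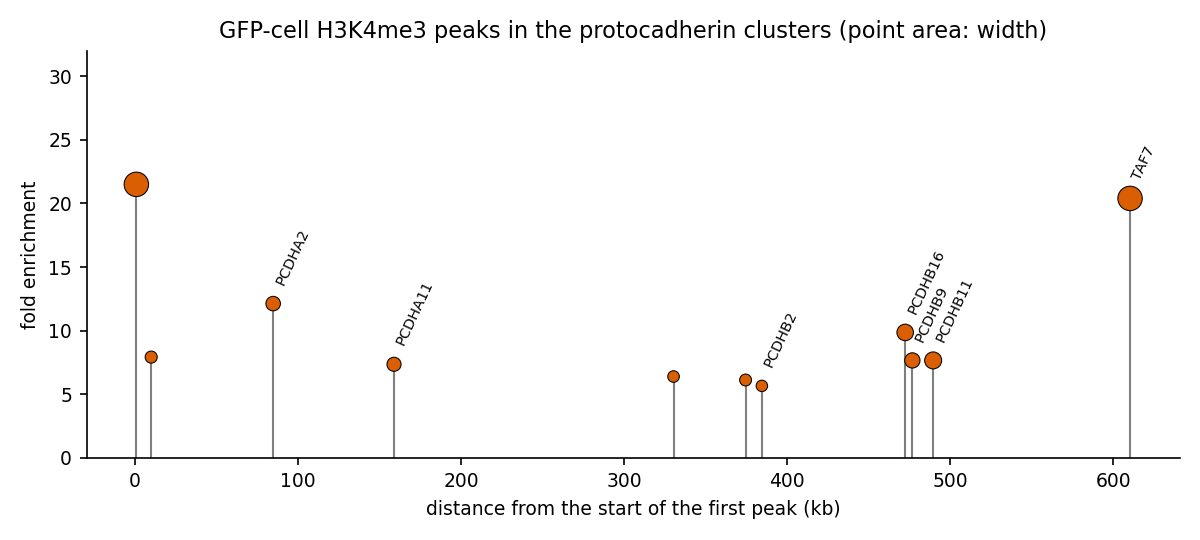
Fold enrichment of the 11 GFP-only H3K4me3 peaks of the longest run, against distance in kb from the start of the first peak. The area of each point is proportional to peak width, and names are given where the summit lies within 1000 bp of a protein-coding start. The outer peaks have folds of 21.5 and 20.4, and those between them 5.66 to 12.1.

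A second region on chromosome 5 held PARP8 and PELO. Its 5 peaks ran from EMB to PELO (chr5:50440591-52790072), with ISL1, a LIM homeodomain factor, between them (chr5:51382871-51385327, fold 21.7, 40 fragments, 3 anti-MAFG libraries of GFP cells). A stretch of 7988 kb held no H3K4me3 peak of MAFG cells, and the run itself spanned 2349 kb of it. The stretch ended 9190 bp past the PELO peak, and the remainder lay before the first peak of the run. Whether reads can be placed over all of that remainder was not tested. The next GFP-cell peak past PELO, with 136 fragments at its summit, was called in both lines. A run of 6 peaks lay inside VMP1, an autophagy gene, on chromosome 17 (folds 3.48 to 9.07), with none at a protein-coding start. Clusters of zinc finger genes on chromosome 19 gave a run of 5 peaks, all at protein-coding starts, over ZNF253, ZNF626, ZNF66, ZNF737 and ZNF85 (folds 5.00 to 16.6). A run of 4 peaks there lay at the starts of ZNF527, ZNF569, ZNF570 and ZNF875 (folds 5.11 to 14.04).

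Zinc finger genes named ZNF, mostly DNA-binding repressors, were again a family picked after its values were seen. A GFP-only peak was the sole one for 60 of 517 (11.6%, beside 3.72% of all protein-coding genes), a both-line peak was present for 319, and none had a MAFG-only peak. Of the H3K4me3 peaks at their starts 17.2% were GFP only, against 8.69% at other protein-coding starts, and both-line peaks there were weaker too (median fold 29.5 against 37.5). In the third class of fold the GFP-only share was 45.7% of 46 peaks at ZNF starts and 24.2% of 833 elsewhere, and in the second it was 67.7% of 31 and 59.3% of 513. The strongest were ZNF524 (fold 22.7), ZNF669 (fold 21.6) and ZNF268 (fold 20.4). Of the 63 GFP-only peaks at ZNF starts 82.5% had no peak in any of the 6 factor libraries of GFP cells, against 57.3% of the 820 at other protein-coding starts. Both-line peaks showed the same order, with 46.9% at ZNF starts and 22.4% at the others, so it was not particular to GFP-only peaks. Zinc finger genes share long repeated sequence, so counts at their starts can be split between copies.

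MITF and MAFG peaks were present on many of the GFP-only peaks in GFP cells. The 3 anti-MITF libraries of GFP cells had a peak on 37.9%, 39.5% and 38.7% of GFP-only peaks and on 55.0%, 54.8% and 54.1% of both-line peaks. The 3 anti-MAFG libraries had one on 38.5%, 35.0% and 24.4% of GFP-only and on 44.2%, 38.9% and 26.5% of both-line peaks. All 6 libraries were lower on GFP-only peaks. The GFP-only minus both-line difference was -15.9 ± 1.01 percentage points (SD, n = 3) in the anti-MITF libraries and -3.91 ± 1.79 in the anti-MAFG libraries. An exact two-sided sign-flip permutation test over the 6 libraries gave p = 0.031, the smallest 6 libraries allow, and 0.156 after Benjamini-Hochberg adjustment over the 10 tests made (3 libraries of 1 antibody allow no p under 0.25).

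This direction turned when the width of the peaks was taken into account. Among both-line peaks the anti-MITF share was 25.8% ± 2.51 (SD, n = 3) in the narrowest of the 5 classes of width and 76.3% ± 1.15 in the widest. In the narrowest class GFP-only peaks had an anti-MITF peak in 36.8% ± 0.730. For anti-MAFG the values there were 31.9% ± 7.44 in GFP-only and 22.2% ± 6.71 in both-line peaks. With both-line peaks weighted to the widths of the GFP-only peaks, an alternative chosen after seeing the data, the difference was 9.29 points with anti-MITF and 9.27 with anti-MAFG, and their mean of 9.28 had p = 0.031 in the same exact permutation test. Weights for fold gave 6.59 and 3.61 points, and weights for width and gene position together 3.31 and 3.78. Weights for gene position alone kept the negative sign, at -19.1 and -7.45 points. In a window of 500 bp around the H3K4me3 summit the differences were -2.34 and 7.11. The sign of the difference thus depended on how width and strength were treated. The H3K4me3 list and the factor lists of a line may share a control library, which was not tested.

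**Figure D5:**
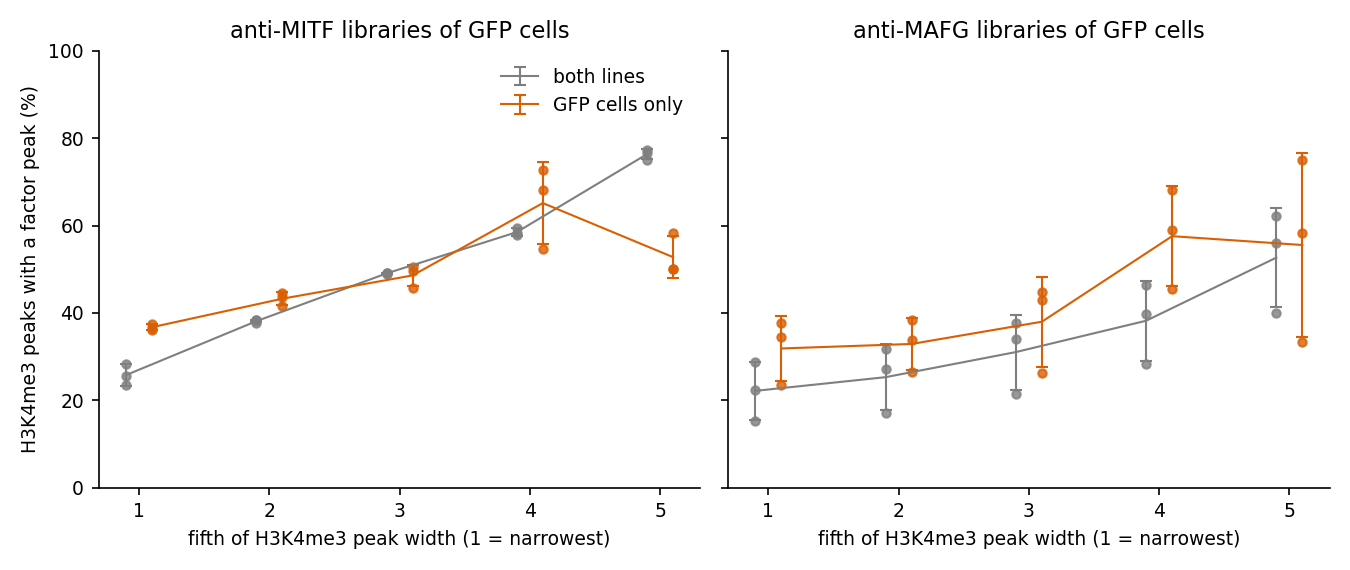
Share of H3K4me3 peaks with an anti-MITF (left) or anti-MAFG (right) peak in GFP cells, in 5 classes of H3K4me3 peak width, for GFP-only and both-line peaks. Points are the 3 libraries, and lines join means with SD. In the narrowest class the GFP-only means are 36.8% and 31.9% and the both-line means 25.8% and 22.2%, and the 2 widest classes hold 22 and 12 GFP-only peaks.

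Factor shares also differed by gene position. At protein-coding starts 21.5% ± 0.494 of GFP-only peaks had an anti-MITF peak (SD, n = 3), inside genes 46.4% ± 1.34 and outside genes 53.6% ± 1.52. Both-line peaks had 53.6%, 60.0% and 60.7% in the same classes, so that the anti-MITF shortfall was widest at starts. For anti-MAFG the GFP-only shares were 18.2% ± 4.34, 40.0% ± 9.50 and 44.2% ± 8.14, and the both-line shares 35.4% ± 9.04, 43.5% ± 9.67 and 41.2% ± 7.87. Within each of the 3 libraries, the anti-MAFG share was lower on GFP-only peaks at starts and inside genes. Inside genes the GFP-only shares were 47.7%, 43.0% and 29.4%, against 52.7%, 44.2% and 33.5%. Outside genes they were higher in all 3, at 50.6%, 46.9% and 35.0% against 48.8%, 41.7% and 33.1%. The SDs given here are between libraries and do not measure the spread of these differences. GFP-only peaks up to 1000 bp from a MAFG-cell H3K4me3 peak had mean anti-MITF and anti-MAFG shares of 20.0% and 14.8%, and those more than 5000 bp away 41.5% and 35.6%. Between the antibodies, the anti-MITF share of GFP-only peaks was 6.05 points above the anti-MAFG share, and the libraries of the antibodies overlapped (exact permutation test, two-sided p = 0.2). Without anti-MAFG replicate 3 of GFP cells, the lowest of the 3, the difference was 1.92 points. That library had the shortest list, 14879 peaks against 26221 and 23409 in the other anti-MAFG libraries. With the 14879 best factor peaks of each GFP-cell library the difference was 6.20 points (exact permutation p = 0.1, the smallest 3 against 3 libraries allow).

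With at least 2 of 3 libraries required, 668 GFP-only peaks (24.5%) had both factors, 360 (13.2%) MITF alone, 230 (8.45%) MAFG alone and 1463 (53.8%) neither. The both-line shares were 29.0% with both factors, 25.6% with MITF alone, 7.11% with MAFG alone and 38.3% with neither. Over all H3K4me3 peaks of GFP cells 51.3% had MITF and 35.5% had MAFG by this rule. All 6 libraries had a peak on 364 GFP-only peaks (13.4%), beside 14.3% of all H3K4me3 peaks, so that this share was near the background, and none of the 6 on 1097 (40.3%), against 22.6% of both-line peaks. The strongest of the 364, after PELO and HS3ST3A1, were an intergenic peak 13698 bp from the start of CIDEC, a lipid droplet protein (fold 22.3), the first peak of the protocadherin run (fold 21.5) and MKS1, a gene of the ciliary transition zone (fold 20.4). The factor peaks on GFP-only regions ranked high in their own lists. Their median percentile by fold was 63.9 ± 0.756 (SD, n = 3) for anti-MITF, against 51.3 on both-line peaks and 48.4 elsewhere, and 63.2 ± 1.25 for anti-MAFG, against 47.7 and 49.9. They made up 5.31% of the anti-MITF and 4.24% of the anti-MAFG peaks of GFP cells.

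In MAFG cells few of these regions had a factor peak. The anti-MITF libraries had one on 4.85%, 4.41% and 4.81% of GFP-only peaks and on 7.63%, 6.59% and 7.23% of both-line peaks, and the anti-MAFG libraries on 2.54%, 2.21% and 2.98% and on 2.14%, 2.14% and 3.06%. The share of GFP-only peaks with an anti-MITF peak thus differed by -34.0 percentage points from GFP to MAFG cells, and that with an anti-MAFG peak by -30.1, with no overlap between the libraries of the lines. An exact two-sided permutation test within antibodies gave p = 0.005 over 12 libraries, the smallest the design allows, and 0.05 after adjustment over the 10 tests. The regions were chosen by H3K4me3 calls present in GFP cells and absent in MAFG cells, which may favour a fall toward MAFG cells. The p-values for the fall, here and below, cannot tell a change of the factors from this choice of regions. The factor lists of MAFG cells were short everywhere, with 1836 to 2818 peaks against 14879 to 26221 in GFP cells, so the size of the fall moved with the lengths of the lists. With the same number of best factor peaks, 1836, from each library it was -3.14 points in the anti-MITF libraries, -3.41 in the anti-MAFG libraries and -3.27 over both, in place of -32.0, with the libraries of the lines still apart (exact permutation p = 0.005 over 12). The fall was therefore also read against that at both-line peaks. The log2 ratio of the GFP-only to the both-line share changed between the lines by -0.10 in the anti-MITF libraries and 0.25 in the anti-MAFG libraries. For each antibody the libraries of the lines were apart, in opposite directions (exact permutation p = 0.1 each, the smallest 3 against 3 libraries allow). Over both antibodies the change was 0.07 (exact permutation test, two-sided p = 0.38). With the 1836 best factor peaks of each library the change over both became -0.58 (exact permutation p = 0.005), and with both-line peaks weighted to width -0.33 (p = 0.035). No direction particular to GFP-only peaks held across these settings.

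A factor peak in at least 2 of 3 anti-MITF or anti-MAFG libraries of MAFG cells lay on 151 GFP-only peaks (5.55%), beside 7.87% of both-line peaks. Over all H3K4me3 peaks of GFP cells, 5.85% had MITF and 2.07% had MAFG by this rule. The strongest 5 of the 151 all had their calls from anti-MITF. They were a peak 1451 bp from the start of ELAVL3, a neuronal RNA-binding protein (fold 18.7), one at HCG20 in the region of IER3 (chr6:30766605-30770147, 3543 bp, fold 18.0), the start of HSD17B14, a hydroxysteroid dehydrogenase (fold 14.04, 219 bp from a MAFG-cell H3K4me3 peak), one 12938 bp from the start of PILRB (fold 12.8) and an intergenic peak 100507 bp from the start of IGF1R (fold 11.9). The first 4 were overlapped in 3 of 3 anti-MITF libraries of MAFG cells and the IGF1R peak in 2, and all 5 in 3 of 3 of GFP cells. At these 5 regions the MITF peak was called in both lines although the H3K4me3 peak was called in GFP cells alone.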

How the data were processed

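H3K4me3, MITF and MAFG were profiled by CUT&RUN in WM164 cells, and calling was done sample by sample, with a deposited list for each library. Libraries were made with the KAPA HyperPrep kit, per the labels. The submitters' processing notes name cutadapt 1.8.1, Bowtie2 2.4.1, MACS2 2.1.1.20160309 and the GRCh38 build, without saying which step each served or which control was used. The authors' fold enrichment is a linear ratio over control, as deposited. The authors' p-values and q-values are deposited as −log10. The authors' integer score, as deposited, was not used. The lowest −log10 q was 2.03 in the GFP-cell and 2.01 in the MAFG-cell H3K4me3 list. The lists hold no read totals, so the depth of each library is unknown.

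Peaks were compared by overlap of at least 1 bp. Genes came from RefSeq, with the summit within 1000 bp of a start, and with either gene end for the 4162 protein-coding genes that have no start in the promoter table. Whole fragments at the summit were recovered by solving fold and −log10 p together under a Poisson tail (tolerance 0.001 in −log10 p), a formula inferred from the values, which gave whole fragments for 95.6% of the GFP-cell and 99.99% of the MAFG-cell peaks, GFP-only peaks included in full. Shares per library were tested with exact permutation tests over libraries, 10 in all, with Benjamini-Hochberg adjustment, and 0.5 was added to counts in log2 ratios. Intervals are exact binomial at 95% and cover counting error only. Members and the 13 gene lists were chosen with earlier results of these data known, and all 329 listed names were matched. Named regions are the strongest, widest, distal and boundary peaks, those with factor peaks in all 6 libraries of GFP cells or in MAFG cells, and every listed gene whose sole peak was GFP only. Scripts ran in Python 3.11.15 with scipy 1.17.1 and were tested on simulated data. Alternatives covered the overlap rule, the q threshold, equal list sizes, merging, window sizes and single libraries left out.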

Additional observations from a re-analysis of the deposited data

How the results depend on the processing

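Counting a MAFG-cell peak within 500 bp as overlap, asking for cover of 50% of the peak, keeping −log10 q of at least 5 or merging peaks left the number of GFP-only peaks within 1.5 times of 2721, and equal numbers of best peaks gave 938. The share at a protein-coding start was 52.5% with 5000 bp around the start, 37.4% at −log10 q of at least 5 and 38.4% more than 5000 bp from a MAFG-cell peak, and the share farther than 5000 bp was 75.3% at −log10 q of at least 5. For the GFP-only minus both-line share in GFP cells, the mean over both antibodies (-9.92, exact permutation p = 0.031) was -5.51 with factor peaks of −log10 q of at least 5 (p = 0.125, anti-MAFG -0.33), -7.05 for peaks more than 5000 bp from a MAFG-cell peak (p = 0.0625, anti-MAFG -0.97), and -16.7 with the factor summit required inside the H3K4me3 peak (p = 0.031, anti-MITF -23.3, anti-MAFG -10.1). Without 1 library it ranged from -11.5 to -8.49, where 5 libraries allow no p under 0.0625. The 500 bp window and the weights below were chosen after seeing the data. The 500 bp window gave 7.11 for anti-MAFG and 2.39 over both antibodies (exact permutation p = 0.281). Weights gave, for anti-MITF, anti-MAFG and both, 9.29, 9.27 and 9.28 for width, 6.59, 3.61 and 5.10 for fold, and 3.31, 3.78 and 3.55 for width with position. The change of the log2 ratio between lines, over both antibodies, was -0.0888 for GFP-only peaks of −log10 q of at least 5, -0.58 with equal numbers of best factor peaks (anti-MAFG -0.53), 0.51 in the 500 bp window (anti-MITF 0.28), -0.33 for width (anti-MAFG -0.29), -0.88 for fold (anti-MAFG -0.93), -0.23 for position (anti-MAFG -0.13) and -0.57 for width with position (anti-MAFG -0.71). The cause of these turns was not tested. Weights by fold rest on 138 both-line peaks in the lowest class of fold, which holds 1221 GFP-only peaks. Without 1 library the fall in factor share from GFP to MAFG cells, over both antibodies, ranged from -34.1 to -30.6, but with equal numbers of best factor peaks it was -3.27 in place of -32.0. Without 1 library anti-MITF minus anti-MAFG in GFP cells ranged from 1.92, without anti-MAFG replicate 3, to 8.98. With equal numbers of best factor peaks in the GFP-cell libraries it was 6.20 (exact permutation p = 0.1).

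The replicate numbers give no stated pairing of the libraries. The correlation of same-numbered libraries' deviations, taken peak by peak over GFP-only peaks, lay between -0.022 and 0.023. It leaves out shifts shared by a whole library, so it cannot settle whether the libraries were paired. With a replicate block, exact sign-flip p was 0.25 for the change of share of anti-MITF (-34.0) and of anti-MAFG (-30.1), 0.031 over both (-32.0), 0.25 for both log2 ratios (-0.10 and 0.25), 0.594 for their mean (0.07) and 0.5 for anti-MITF minus anti-MAFG in GFP cells (6.05).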

Other observations

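Other runs of neighbouring GFP-only peaks covered genes outside the lists, and these regions were picked after their values were seen. On chromosome 4 a run of 5 peaks in 4120 kb without an H3K4me3 peak of MAFG cells lay at the starts of MAP9 (fold 5.52), CTSO (fold 9.46), PDGFC, a platelet-derived growth factor (fold 12.2), and TMEM144 (fold 8.93) and inside GASK1B (fold 7.92, 3630 bp wide). An anti-MAFG peak was called on all 5 in at least 1 library of GFP cells, and an anti-MITF peak on CTSO and TMEM144. Inside WWTR1, which encodes the Hippo pathway coactivator TAZ, 4 peaks of 404 to 841 bp had folds of 5.09 to 6.63, and 2 of them a peak in all 6 factor libraries of GFP cells. On chromosome 6 a run of 4 peaks held the start of the oestrogen receptor ESR1 (fold 4.34) and 2 peaks inside SYNE1, a nuclear envelope protein (folds 9.46 and 7.49), and these 3 had a peak in all 6 factor libraries of GFP cells and in none of MAFG cells.

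Starts of long non-coding RNA genes in the promoter table showed the same order of CpG content as protein-coding starts. An observed over expected CpG of at least 0.6 was found for 66.3% of 252 starts under GFP-only peaks, 85.9% under both-line peaks and 14.4% without a peak in GFP cells. Of 83 histone genes 5 were GFP only (H2BC18, H2BC3, H3C13, H4C2 and H4C6), which is 6.02% beside 3.72% of all protein-coding genes. A both-line peak was present for 51, and these genes share near-identical sequence. Of 392 olfactory receptor genes, OR1F1 was GFP only and none had a both-line peak.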
